A study of Drosophila melanogaster with 24 samples.

Results

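The 114 genes described here were chosen from values of 4 groups of embryos, in which they were higher late than early with activated Ras and lower late with activated Notch than in controls. A gene entered if its mean log2 level was higher by 1 or more in late than in early Ras embryos, and lower by 0.7 or more in late Notch than in late control embryos. Of 5020 genes with 1 symbol and a log2 value of 5 or more in at least 3 of 24 arrays, 269 (5.36%) met the first criterion and 275 (5.48%) met the second. The 114 that met both made up 42.4% of the 269, and the remaining 155 serve below as the other genes of the Ras criterion. Both criteria are a choice of members and not a result, so every comparison that holds 1 of those 4 groups is given as a description without a test.

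The series examined how the Notch and Ras pathways meet at common transcriptional targets, on 24 Affymetrix arrays of whole-embryo RNA. Homozygous armadillo-GAL4 females were crossed to males with UAS-NotchICD (called Notch), with UAS-NotchICD and UAS-Ras1V12 (called combined), with UAS-Ras1V12 (called Ras), or to w1118 males (called control), so that all embryos, controls included, carried the GAL4 driver. The armadillo promoter drives GAL4, a yeast transcription factor, throughout the embryo at moderate levels, and GAL4 switches on the UAS transgenes. NotchICD is the receptor's intracellular domain, active with no ligand, and Ras1V12, also labelled Ras85D(V12), is an always active form of the GTPase Ras85D. Embryos were frozen at 7 h to 8 h after egg lay (late) and at 5 h 45 min to 6 h 45 min (early), with 3 independent experiments per cross and window and about 500 embryos in each collection. The transgenes were not limited to any tissue, and neither was the RNA.

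Notch is a receptor that cells use to signal to their neighbours: its cleaved intracellular part enters the nucleus and, with its DNA-binding partner, switches on target genes, among them transcriptional repressors of the Enhancer of split complex. In the fly embryo it limits how many cells become neuroblasts, muscle progenitors or other precursors. Ras passes on the signals of receptor tyrosine kinases such as the EGF and FGF receptors, which promote some of the same precursor fates. Over the hours sampled the embryo moves from patterning toward differentiation, and muscle, nerve, trachea and epidermis begin to make the proteins of their mature state.

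The arrays were alike in overall level, with medians of 4.03 to 4.21 log2 units and 5384 to 5693 probe sets at 5 or more. Of 10 measured genes of the Enhancer of split complex, 8 were called higher and 0 lower in early Notch than in early control embryos, and none of the 10 is among the 114 genes. Among all tested 1.94% were called higher there. Replicate 3 was often the lowest array, in both windows. It was the lowest late control array in 57 of the 114 genes and the lowest late Ras array in 54. In the early window it was the lowest control array in 58 genes and the lowest Ras array in 68. In Notch embryos replicate 1 was lowest more often, in 49 genes late and 47 early, against 45 and 40 for replicate 3. Late control replicate 3 lay below the highest late Notch array in 27 genes, against 1 gene each for replicates 1 and 2. In late combined embryos replicate 2 was the highest array in 75 of the 114 genes and replicate 3 the lowest in 55. Without late control replicate 3 the same criteria chose 142 genes, 113 of them among the 114, and without replicate 3 of every group they chose 134, of which 101 were shared. For the GAPDH controls on the array, the 3' level minus the 5' level, a sign of RNA integrity that also follows the transcript, was 1.50 to 1.77 in late Notch and 2.57 to 3.91 in late control arrays. It was 1.43 to 2.58 in late combined and 0.70 to 1.08 in early combined arrays. For the actin controls the same difference was 0.46 to 0.86 in late Notch and 0.37 to 0.88 in late control arrays. It was 0.27 to 0.59 in late combined and 0.47 to 0.66 in early combined arrays, so the actin ranges overlapped. The part of either control in any result was not tested. Because the RNA came from whole embryos, fewer cells of a type and less RNA per cell cannot be told apart.

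**Figure D1:**
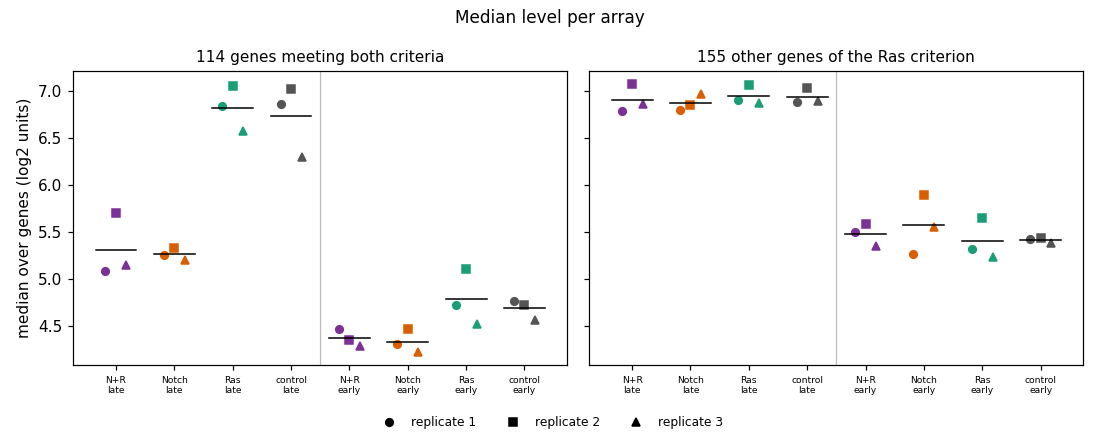
Median log2 level (y axis) of the 114 genes and of the 155 other genes of the Ras criterion in each of the 24 arrays, with arrays grouped by cross and window (x axis; N+R stands for combined); lines mark the mean of the 3 arrays. Late Notch and late combined arrays had member medians of 5.09 to 5.70 against 6.30 to 7.05 in late Ras and late control arrays, while the other genes stayed between 6.78 and 7.07 in all late arrays. The second criterion set the late gap between Notch and control in the 114 genes, and the 155 failed that criterion.

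The median of the 114 genes was 5.26, 5.33 and 5.20 in late Notch arrays (replicates 1, 2 and 3, the order used throughout) and 5.09, 5.70 and 5.15 in late combined arrays. It was 6.84, 7.05 and 6.57 in late Ras arrays and 6.86, 7.02 and 6.30 in late control arrays. Early medians were close to each other, at 4.31, 4.47 and 4.23 for Notch, 4.47, 4.35 and 4.29 for combined, 4.73, 5.11 and 4.52 for Ras, and 4.77, 4.73 and 4.57 for control embryos. The plot of array medians shows a wide late gap between the crosses with and without activated Notch, and a narrow early one. Many members were near the lower end of the scale: 51 had a mean under 5 in late Notch and 3 in late control embryos, and 75 had one in early Notch and 66 in early control embryos. Of the 114 genes, 19 reached 5 in no array outside the late Ras and late control groups, and 41 did so in fewer than 3 such arrays. Those 41 passed the filter only through groups that the criteria used.

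As a description of what the criteria chose, the late Notch minus late control difference had a median of -1.20 and ran from -4.73 to -0.71, against -0.19 for the 155 other genes and 0.01 for all 5736 probe sets and genes tested. The late minus early difference in Ras embryos had a median of 1.75 (1.01 to 4.47), and in control embryos 1.77 (0.70 to 5.21). In Notch embryos its median was 0.68 (-0.19 to 3.50), which was a median of 39.0% of the control difference, gene by gene. Just inside the first threshold lay mib2 (1.007), CG31915 (1.013) and SPARC (1.014), and just outside AnxB9 (0.998), Dhc64C (0.990) and scb (0.989). Just inside the second lay CG6770 (-0.713), CG6310 (-0.740) and Ald1 (-0.758), and just outside Vha55 (-0.694), Tina-1 (-0.694) and osp (-0.691). The thresholds cut through a continuous range of values.

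The genes were collected as rising genes held back by late Notch. As a description, partly from the values that chose them, this label fitted most but not all. In 7 genes (Argk1, CG43332, CG5958, CG8036, Ppn, Tret1-1 and glob1) the late minus early difference in Notch embryos was at least as large as in control embryos. In such a gene the early Notch deficit must be at least as large as the late one, which the second criterion set. That all 7 were called lower in early Notch embryos therefore follows largely from the choice of genes and is not a separate finding. Without early Notch replicate 1 the count was 4, since the difference was then 2.69 in Notch against 2.82 in control embryos for Argk1, 1.05 against 1.14 for CG8036 and 0.97 against 1.56 for glob1, and without any 1 other Notch or control array it was 6 to 9. Late Ras minus late control had a median of -0.08 and a range of -1.78 to 1.71. The lowest such differences were those of CG7296 (-1.78), fbp (-1.43) and Argk1 (-1.22), and the highest those of the cuticle gene Cpr65Ea (1.71), dnd (1.36) and Osi20 (1.28).

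Embryos with both transgenes entered neither criterion in either window, so the change between windows in this cross was tested. Combined and Ras arrays of the same number deviated together, with correlations of 0.43 to 0.602 late and 0.199 to 0.409 early. The test is therefore not fully separate from the Ras values that chose the genes. In late against early combined embryos 57 of the 114 genes (50.0%) rose and 0 fell (limma, adjusted p under 0.05), where 20.3% of all 5736 tested rose and 13.0% fell. At an unadjusted p under 0.05 66 were higher and 0 lower. The same test called 124 of the 155 other genes (80.0%) higher. Of the 114, 73 had a mean under 5 in early and 45 in late combined embryos. The 41 that passed the filter only through groups of the criteria are among the 114. Members near the floor can hardly fall, and their rises are understated. The share of the 114 is therefore not on equal terms with that of the 155, and the difference was not tested. Over all 114 the median change was 0.85 log2 units (-0.34 to 4.22), over the other genes 1.28 and over all tested 0.03. The number of members called ran from 41 (without late combined replicate 2) to 58 when any 1 combined array was left out, with 1 member lower without late combined replicate 1, and was 65 without replicate 3 of every group and 75 with the replicate number as a block. Of the 57, CG7294, JhI-26, NtR, dnd, ken, obst-A and rhea lost their call without replicate 3 of every group (limma, adjusted p of 0.051 to 0.19), and 15 other members gained one. Markers of several cell types moved with this comparison. The summed log2 level of the 3 glial markers (repo, gcm and wrapper) was 19.9 to 20.4 in late and 18.3 to 18.4 in early combined arrays, where wrapper rose by 1.87 ± 0.19 and gcm fell by 0.35 ± 0.13 (limma, adjusted p = 3.0e-07 and 0.047). That of the tracheal markers btl and verm was 13.9 to 15.2 late and 12.7 to 13.4 early, where btl fell by 0.75 ± 0.18 (limma, adjusted p = 0.0039) and verm, a member, rose. That of 4 muscle markers was 17.2 to 19.9 late and 16.7 to 16.8 early, with none of the 4 passing the test, and the gut markers GATAe and mex1 had 10.9 to 11.3 late and 10.3 to 10.6 early. The part of these markers in the members' result was not tested. Set beside the Ras values that chose the genes, the combined change was a median of 47.1% of the Ras difference, gene by gene, and late combined minus late Ras had a median of -1.10 (-5.48 to -0.03). Late combined minus late control, which holds a group of the second criterion, had a median of -1.13 over the 114 genes. That median was -0.17 over the other genes and 0.04 over all tested. Late combined minus late Notch had a median of 0.11 (-1.97 to 1.10) over the 114.

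**Figure D2:**
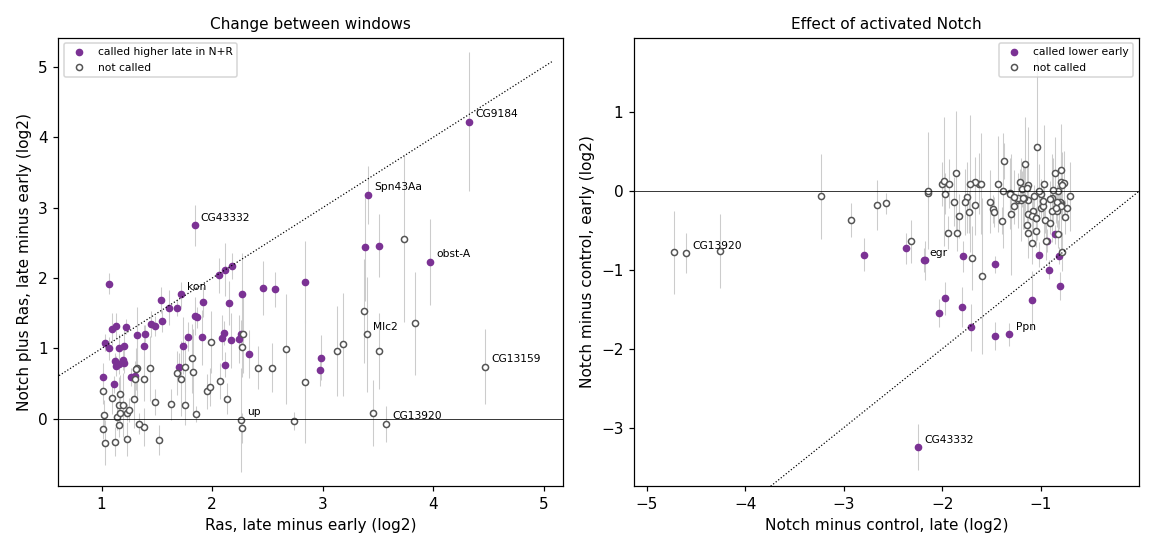
Left, the late minus early change in combined embryos (y axis) against that in Ras embryos (x axis); right, the Notch minus control difference in the early window (y axis) against that in the late window (x axis), all in log2 units, 1 point per gene, vertical bars for the standard error of the fit, filled points for genes called by limma and a dotted line for equality. The Ras and late Notch values chose the genes, so only the vertical positions are tested; CG43332 lies above the line on the left and lowest on the right, and CG13920 lies near 0 on the left at -0.07.

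The 57 genes that rose in combined embryos were led by CG9184, the serpin gene Spn43Aa, CG43332, the chitin deacetylase gene verm, CG10591 and the chitin-binding protein gene obst-A. Serpins are protease inhibitors. Spn43Aa had 6.20, 7.00 and 6.70 log2 units in late and 3.54, 3.53 and 3.29 in early combined embryos, and rose by 3.18 ± 0.41 (SE, n = 3 arrays per group, limma, adjusted p = 7.2e-06). Another serpin gene, Spn42Da, had 5.45, 5.92 and 5.79 late and 3.62, 3.68 and 3.36 early, a rise of 2.17 ± 0.19 (limma, adjusted p = 8.5e-08). In neither serpin gene did the windows overlap. Spn100A, also a serpin gene, did not pass (0.72 ± 0.41, limma, adjusted p = 0.18, and 0.0026 with the replicate block). CG9184 had 9.97, 10.71 and 7.73 late and 5.87, 6.07 and 3.81 early, with replicate 3 the lowest in both windows, and rose by 4.22 ± 0.99 (limma, adjusted p = 0.0027). CG10591 rose by 2.44 ± 0.77 (limma, adjusted p = 0.020) but lost its call in 5 of its alternatives, among them without late combined replicate 1 or 2 (adjusted p up to 0.12).

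None of the 5 members that encode parts of the contractile apparatus passed the test between windows in combined embryos. They are up (troponin T), the myosin light chain genes Mlc1 and Mlc2, Tm2 (tropomyosin) and Mlp84B (a muscle LIM protein). The levels of up were 3.66, 3.35 and 3.12 in late Notch, 3.09, 3.06 and 3.10 in late combined, 6.49, 6.28 and 3.38 in late Ras and 7.14, 6.52 and 2.92 in late control embryos. Replicates 1 and 2 of Ras and control thus stood more than 2 units above every Notch and combined array, and replicate 3 did not. Mlc2 had 7.08, 6.70 and 6.07 in late Notch, 5.97, 6.59 and 4.94 in late combined, 9.28, 9.86 and 7.13 in late Ras and 9.97, 9.83 and 5.99 in late control embryos. Outside the late Ras and late control groups no array exceeded 3.66 for up, 4.20 for Tm2 or 4.49 for Mlp84B, so these 3 passed the filter only through the groups that chose them and were near the floor in both combined windows; their missing call says little. The changes of the 5 in combined embryos were -0.01 to 1.20, with standard errors of 0.41 to 0.87. With the replicate block Mlc2 alone among the 5 passed it (1.20 ± 0.46, adjusted p = 0.042 with the block and 0.27 without). Of all 11 muscle structural genes measured, 1 rose, with a median change of 0.20, where 20.3% of all tested rose.

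**Figure D3:**
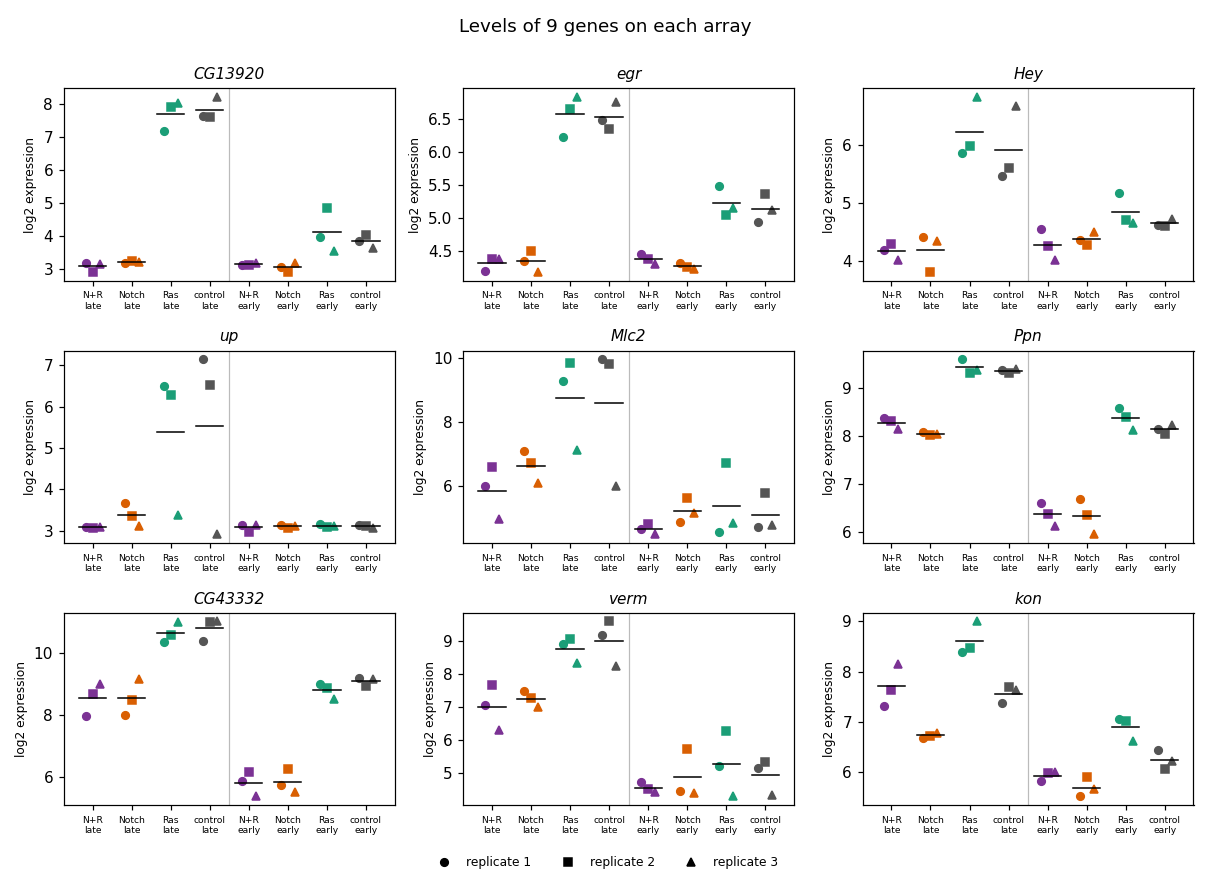
Log2 level (y axis) of selected members in each array, grouped by cross and window (x axis); points are arrays (1 symbol per replicate) and lines are group means. CG13920 is near 3 in every Notch and combined array, kon is high in late combined arrays at 7.32 to 8.16, Ppn is low in early Notch arrays at 5.95 to 6.68, and late control replicate 3 is low for up at 2.92.

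Of 9 genes of muscle fusion, guidance and attachment, 7 rose in combined embryos, with a median change of 1.15. Among all 114 genes 50.0% rose, and among all tested 20.3%. Like the other groups by role, this one was formed after the values were seen, so its count is a description of chosen genes. The gene kon encodes a transmembrane protein that guides growing muscles to their attachment sites. It had 7.32, 7.64 and 8.16 log2 units in late and 5.82, 5.98 and 6.00 in early combined embryos, with no overlap, and rose by 1.77 ± 0.18 (limma, adjusted p = 5.2e-07). Its late levels elsewhere were 6.69, 6.72 and 6.79 in Notch, 8.39, 8.47 and 9.00 in Ras and 7.37, 7.69 and 7.63 in control embryos, so the late combined arrays lay within or above the control range apart from the first. Grip, a scaffold protein gene of the same muscle guidance process, rose by 1.66 ± 0.21 in combined embryos (limma, adjusted p = 6.1e-06), and rols, whose adaptor protein acts in myoblast fusion, by 1.22 ± 0.17 (limma, adjusted p = 1.3e-05). For kon, Grip and rols late combined minus late Notch was 0.97, 0.85 and 0.85, among the highest values of the 114 genes.

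The tendon cell transcription factor gene sr had 3.68, 4.64 and 3.96 in late and 2.94, 2.95 and 2.97 in early combined embryos, and rose by 1.14 ± 0.34 (limma, adjusted p = 0.015). Its late control values were 5.38, 5.36 and 3.29, so replicate 3 was again the low one. Tig, which encodes the integrin ligand tiggrin, rose by 1.15 ± 0.32 (limma, adjusted p = 0.0081), and betaTub60D, a mesodermal tubulin gene, by 1.21 ± 0.12 (limma, adjusted p = 2.1e-07). The talin gene rhea rose by 0.49 ± 0.12 by the probe set tested (limma, adjusted p = 0.0051, and 0.10 without replicate 3 of every group), while its other probe set averaged 7.70 in late and 7.69 in early combined embryos, so its call rests on the choice of probe set. The 2 that did not pass were mib2, a ubiquitin ligase gene needed for muscle integrity (-0.14 ± 0.14), and CAP, an adaptor gene of attachment sites (0.73 ± 0.31, adjusted p = 0.076, and 0.023 with the replicate block). Of the lists, 6 of 10 genes of myoblast fusion and muscle identity and 4 of 7 tendon and attachment genes rose and 0 fell, with medians of 0.70 and 0.53. Among all tested 20.3% rose and 13.0% fell. Only rols and sr of those lists are members.

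Of 6 genes of the basement membrane and of collagen modification, 3 rose in combined embryos, as did 50.0% of the 114 genes and 20.3% of all tested. Collagen IV chains are encoded by vkg and Col4a1, which are adjacent in the genome, with no protein-coding gene between them in the RefSeq annotation. vkg had 4.66, 4.76 and 4.53 in late Notch, 5.48, 6.29 and 4.54 in late combined, 7.17, 7.50 and 6.14 in late Ras and 7.04, 7.02 and 5.18 in late control embryos. Every late Notch value of vkg lay below every late control value, with late control replicate 3 nearest, a gap that the second criterion favoured. Its combined change was 1.02 ± 0.42 (limma, adjusted p = 0.067, and 0.0025 with the replicate block), and that of Col4a1 0.74 ± 0.36 (limma, adjusted p = 0.12, and 0.012 with the block). SPARC, whose product binds collagen IV, rose by 0.60 ± 0.19 (limma, adjusted p = 0.019), and Plod, which encodes a lysyl hydroxylase that modifies collagen, by 1.46 ± 0.27 (limma, adjusted p = 3.5e-04). PH4alphaSG2, a salivary gland prolyl hydroxylase gene, stayed low in combined embryos at 3.93, 3.91 and 4.18 late and 3.81, 3.72 and 3.62 early. Of the 16 hemocyte and basement membrane genes measured, 7 rose and 0 fell in combined embryos (median 0.59). PPO1, the prophenoloxidase gene of crystal cells, had a difference of 0.56 ± 0.23 that did not pass (limma, adjusted p = 0.062, and 0.024 with the block).

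Ppn, which encodes the extracellular matrix protein papilin, was low with Notch already in the early window. It had 6.68, 6.36 and 5.95 in early Notch and 6.61, 6.37 and 6.12 in early combined embryos, against 8.15, 8.05 and 8.24 in early control embryos. The groups did not overlap, and the early Notch minus early control difference was -1.82 ± 0.15 (limma, adjusted p = 3.5e-08). Between windows it rose by 1.92 ± 0.15 in combined embryos (limma, adjusted p = 2.1e-08), to 8.39, 8.31 and 8.15, while late control embryos had 9.39, 9.32 and 9.41. Late Notch embryos had 8.08, 8.03 and 8.05, below all late controls as in the early window, though the second criterion favoured the late gap.

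Genes of chitin, cuticle and tracheal matrix had 8 members, of which verm, serp and obst-A rose in combined embryos. Among the 114 genes 50.0% rose, and among all tested 20.3%. The chitin deacetylase genes verm and serp are neighbours with no protein-coding gene between them. verm had 7.07, 7.67 and 6.30 in late and 4.73, 4.50 and 4.42 in early combined embryos and rose by 2.46 ± 0.45 (limma, adjusted p = 3.3e-04), and serp rose by 1.16 ± 0.39 (limma, adjusted p = 0.026). The late levels of verm were 7.50, 7.28 and 7.00 in Notch, 8.90, 9.07 and 8.34 in Ras and 9.18, 9.60 and 8.25 in control embryos. Notch and control did not overlap, as in 85 of the 114 genes, which the second criterion favoured. obst-A rose by 2.23 ± 0.61 (limma, adjusted p = 0.0085) and lost its call without late combined replicate 2 (adjusted p = 0.059). Cpr65Ea (1.36 ± 0.73), slf (1.53 ± 0.74), Gasp (1.06 ± 0.73), Osi15 (0.99 ± 0.78) and Osi20 (0.97 ± 0.64) did not pass, with adjusted p of 0.12 to 0.34. With the replicate block slf and Cpr65Ea passed (limma, adjusted p = 4.7e-04 and 7.9e-04), and without replicate 3 of every group slf, Cpr65Ea and Gasp did (limma, adjusted p = 0.0016, 9.9e-05 and 0.038). Of 10 apical matrix genes measured, 8 rose in combined embryos (median 1.11), 4 of the 10 being members. None of the 12 septate junction genes measured is a member, 10 of them rose in combined embryos, and their median late Notch minus late control difference was 0.24.

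Of the 6 genes of nerve cells and glia, a group also formed after the values were seen, none passed the test in combined embryos. Their changes were -0.30 to 0.46 with a median of 0.18, where 50.0% of the 114 genes and 20.3% of all tested rose. Of the lists, 3 of 8 glial genes rose and 1 fell, and 1 of 9 neuronal genes rose and 1 fell. The neuronal RNA-binding protein gene fne had 5.61, 4.87 and 5.08 in late Notch, 5.60, 5.13 and 5.35 in late combined, 7.36, 7.31 and 7.35 in late Ras and 7.71, 7.96 and 6.85 in late control embryos. All late Notch and late combined arrays lay more than 1 unit below all other late arrays, and the second criterion favoured the gap between Notch and control. Hey, a bHLH repressor gene expressed in newborn neurons, had 4.41, 3.81 and 4.35 in late Notch, 4.19, 4.30 and 4.02 in late combined, 5.86, 5.99 and 6.83 in late Ras and 5.46, 5.61 and 6.67 in late control embryos, and its difference was -0.11 ± 0.27 between windows in combined embryos (limma, adjusted p = 0.79). The glial homeodomain gene repo (0.24 ± 0.19), the G protein subunit gene Galphao (-0.30 ± 0.21) and the adaptor gene X11Lbeta (0.13 ± 0.17) did not pass either.

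The early window was the second place where the genes could be tested in groups that did not choose them. Early Notch and early control arrays still deviated together with same-numbered early Ras arrays, which the first criterion used (correlations of 0.264 to 0.433). In early Notch against early control embryos 20 of the 114 genes (17.5%) fell and 0 rose (limma, adjusted p under 0.05), where 3.49% of all tested fell and 1.94% rose. At an unadjusted p under 0.05 35 were lower and 0 higher. Among the 155 other genes 3 fell and 11 rose. Of the 114, 75 had a mean under 5 in early Notch and 66 in early control embryos. The 41 that passed the filter only through groups of the criteria are again among the 114. In members near the floor a fall could hardly show. The shares of the 114 and the 155 are therefore not on equal terms, and their difference was not tested. The median difference was -0.19 (-3.25 to 0.56) over the 114, 0.01 over the other genes and -0.04 over all tested. Leaving out any 1 array of either group, or replicate 3 of every group, gave 15 to 20 members lower and 0 higher, and the replicate block gave 27, among them kon and CG13920 (limma, adjusted p = 0.026 and 0.035, against 0.11 and 0.073 without the block). Without replicate 3 of every group, Argk1, CG13928, apolpp, betaTub60D, otk2 and spidey lost their call (limma, adjusted p of 0.053 to 0.29) and fne gained one (0.037). Markers of several cell types moved with this comparison, in both directions. Of 4 nerve cell markers 3 were measured (elav, fne and nerfin-1), and their summed log2 level was 14.9 to 15.6 in early Notch and 22.2 to 23.3 in early control arrays. Most of that gap was nerfin-1 (-5.29 ± 0.26, limma, adjusted p = 7.7e-12); elav fell by 1.37 ± 0.31 (limma, adjusted p = 0.0078) and fne did not pass. Of the 9 neuronal genes measured from the longer list 2 were higher, jeb among them (0.98), and 2 lower, with a median of -0.27. The 3 glial markers summed to 18.9 to 19.5 in early Notch against 16.9 to 17.5 in early control arrays, where wrapper rose by 2.99 ± 0.19 and gcm fell by 0.75 ± 0.13 (limma, adjusted p = 3.0e-10 and 5.9e-04). The tracheal markers summed to 12.6 to 13.9 against 11.2 to 12.2, where btl rose by 1.56 ± 0.18 (limma, adjusted p = 4.0e-06) and verm did not pass, and the amnioserosa marker Doc1 fell by 0.73 ± 0.18 (limma, adjusted p = 0.014). The part of these markers in the members' result was not tested.

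The largest fall was that of CG43332, for which no function is given here. It had 5.76, 6.27 and 5.52 in early Notch against 9.20, 8.95 and 9.16 in early control embryos, a difference of -3.25 ± 0.29 (limma, adjusted p = 9.8e-08). In combined embryos it had 7.99, 8.68 and 9.01 late and 5.87, 6.17 and 5.39 early, and rose by 2.75 ± 0.29 (limma, adjusted p = 6.5e-07). The next falls were CG5958 (-1.84 ± 0.18, limma, adjusted p = 2.5e-07), Ppn, the globin gene glob1, the glutathione S-transferase gene GstE6 (-1.55 ± 0.18, limma, adjusted p = 2.9e-06) and Drsl5, a gene of the Drosomycin family of defence peptides (-1.47 ± 0.25, limma, adjusted p = 5.2e-04). glob1 had 5.02, 6.94 and 6.81 in early Notch against 7.90, 8.02 and 8.04 in early control embryos, a difference of -1.73 ± 0.30 (limma, adjusted p = 4.6e-04). All 3 Notch arrays lay below all controls; without early Notch replicate 1 the difference was -1.11 (limma, adjusted p = 3.0e-06), and in a fit on those 6 arrays alone its adjusted p was 0.11. In cher and Osi15 all 3 early Notch values lay above all 3 early controls, by a mean of 0.38 ± 0.23 and 0.23 ± 0.78, and neither passed.

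Of 12 members grouped as energy and lipid genes after their values were seen, 5 were among the 20. In this test 17.5% of the 114 genes and 3.49% of all tested fell. Of the lists, 0 of 11 glycolysis and sugar genes (median -0.03) and 1 of 3 fat body and lipid genes (apolpp) were called lower in early Notch embryos, and none higher. The 5 members were glob1, Argk1 (arginine kinase), Tret1-1 (a trehalose transporter), apolpp (the precursor of the main lipid carrier of the blood) and fabp (a fatty acid binding protein). Tret1-1 had 6.20, 6.79 and 6.61 in early Notch against 7.76, 7.65 and 7.82 in early control embryos, a difference of -1.21 ± 0.18 (limma, adjusted p = 8.9e-05). apolpp had 8.41, 8.50 and 7.92 in early Notch against 8.99, 9.17 and 9.12 in early control embryos, and fell by 0.81 ± 0.16 (limma, adjusted p = 0.002). Argk1 had 5.12, 7.26 and 5.56 in early Notch against 7.70, 7.35 and 7.07 in early control embryos, with replicate 2 of Notch inside the control range, and fell by 1.39 ± 0.38 (limma, adjusted p = 0.03). No early Notch array of Tret1-1 or apolpp reached the lowest early control array. Of the 12, 9 rose between windows in combined embryos, with a median change of 0.93. Among the 114 genes 50.0% rose there, and among all tested 20.3%. The exceptions were Ald1 (aldolase, 0.05 ± 0.22), Idh (isocitrate dehydrogenase, 0.35 ± 0.27) and glob1 (0.71 ± 0.30, adjusted p = 0.071, and 0.040 with the replicate block).

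Crossed with the combined test, which shares no array with it, the early Notch test divided the 114 genes into 4 sets. The tests are still linked. Same-numbered early Notch and early combined arrays deviated together (correlations of 0.245 to 0.315), and 1 fit gave the spread for both tests. In 14 genes the early level fell with Notch and the combined level rose between windows: aus, NtR, Ppn, apolpp, GstE6, otk2, betaTub60D, CG43332, CG5958, Tret1-1, Drsl5, fabp, Argk1 and CG8036. In 6 the early level fell and no combined rise passed: CG3408, ewg, spidey, egr, CG13928 and glob1. A further 43 rose in combined embryos without an early call, and 51 passed neither test. The 51 include 5 of the 8 genes with the largest late Notch deficits (CG13159, CG13920, CG14756, CG14110 and CG4306), none of which has a named function here. These 5 had means of 2.25 to 4.67 in early Notch and 2.30 to 4.30 in early combined embryos. At such levels a fall could hardly show, and a rise that stayed near the floor could be missed. With the replicate block the 4 sets held 21, 6, 54 and 33 genes. Of the 51, 18 then passed 1 of the tests (limma, adjusted p of 4.7e-04 to 0.049), CG13920 the early one and CG14110 (0.014, against 0.18 without the block), CAP, CG31915, CG4702, CG5080, CG6770, Col4a1, Cpr65Ea, ImpE2, ImpL1, Mlc2, Neurochondrin, Obp56a, PPO1, Spn100A, slf and vkg the combined one, and glob1 left the set of 6. The map of group means shows these sets from top to bottom.

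**Figure D4:**
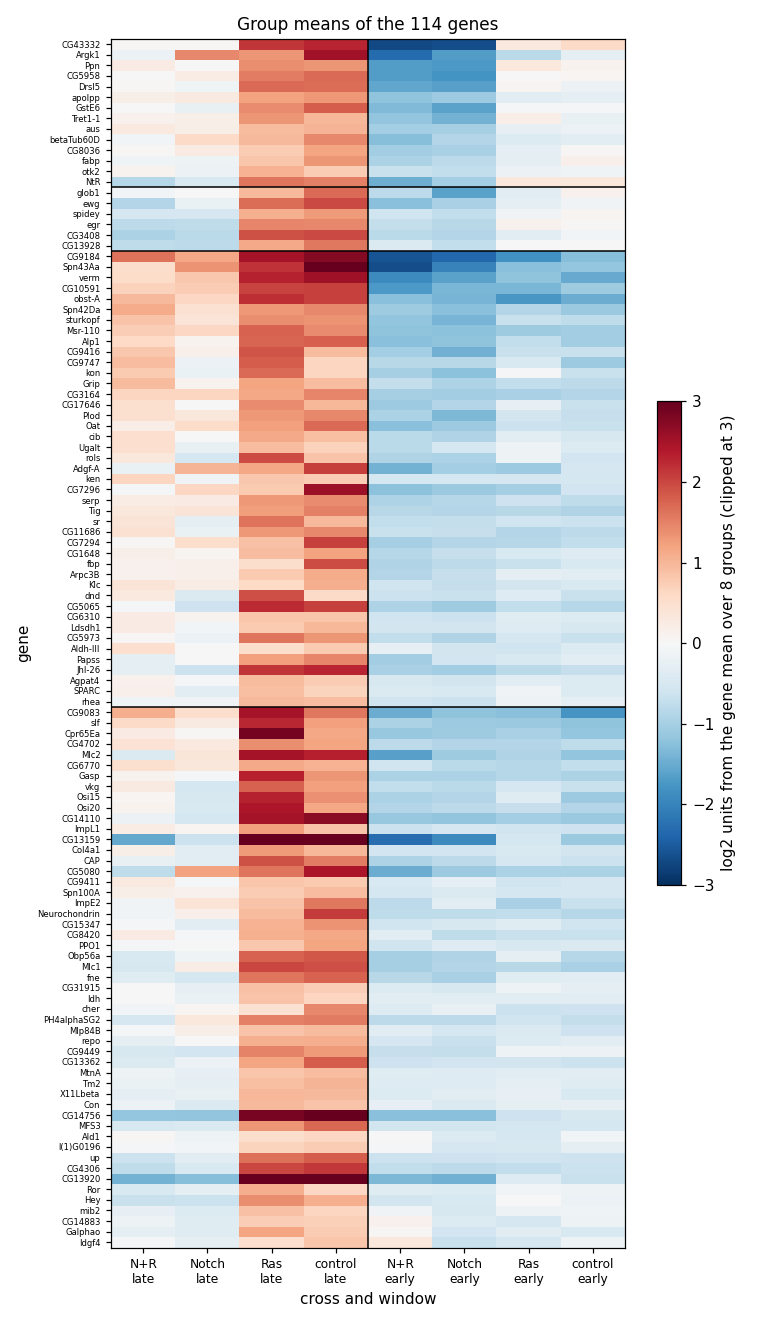
Group means of the 114 genes (1 gene per line) in the 8 groups (columns; N+R stands for combined), as log2 units from the gene's mean over the groups, with colours clipped at 3 and horizontal lines between the 4 sets of 14, 6, 43 and 51 genes, each ordered by the combined change. Late Ras and late control columns are red throughout, late combined and late Notch columns are mostly paler or blue, and the 14 genes at the top are blue in the early combined and early Notch columns.

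Of the 6, egr encodes Eiger, the fly's tumour necrosis factor ligand. It had 4.32, 4.25 and 4.22 in early Notch and 4.45, 4.38 and 4.30 in early combined embryos, against 4.94, 5.36 and 5.12 in early control embryos, and fell by 0.88 ± 0.15 with Notch (limma, adjusted p = 4.6e-04). Late it had 4.35, 4.50 and 4.18 in Notch and 4.19, 4.37 and 4.38 in combined embryos, against 6.48, 6.35 and 6.76 in control embryos. In both Notch-expressing crosses it thus stayed within 4.18 to 4.50 in both windows, and the combined change was -0.07 ± 0.15 (limma, adjusted p = 0.76). The transcription factor gene ewg, needed in neurons and muscle, fell by 0.88 ± 0.25 early with Notch (limma, adjusted p = 0.041), and its combined change of 0.39 ± 0.25 did not pass (limma, adjusted p = 0.24).

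The 8 largest late Notch deficits were those of CG13159 (-4.73), CG13920 (-4.60), CG14756 (-4.26), CG14110 (-3.23), JhI-26 (-2.93), CG3408 (-2.80), CG5065 (-2.66) and CG4306 (-2.57), as late Notch minus late control. The 8 largest late minus early differences in Ras embryos were those of CG13159 (4.47), CG9184 (4.32), obst-A (3.97), Cpr65Ea (3.83), CG9083 (3.73), CG13920 (3.57), verm (3.51) and CG14110 (3.51). CG13920 had 3.19, 3.25 and 3.22 in late Notch, 3.20, 2.92 and 3.16 in late combined, 7.18, 7.90 and 8.04 in late Ras and 7.65, 7.62 and 8.21 in late control embryos. All 12 Notch-expressing arrays of both windows lay between 2.92 and 3.25, near the bottom of the scale. CG13159 had 6.43, 6.03 and 5.33 in late Notch, 4.98, 5.36 and 4.79 in late combined, 10.68, 11.00 and 9.89 in late Ras and 10.81, 11.15 and 10.03 in late control embryos. Its combined change was 0.74 ± 0.53 (limma, adjusted p = 0.29). JhI-26, a juvenile hormone-inducible gene, had 4.21, 4.76 and 4.29 in late Notch against 6.78, 7.72 and 7.56 in late control embryos, and rose by 0.69 ± 0.22 in combined embryos (limma, adjusted p = 0.022, and 0.18 without replicate 3 of every group). Of 10 ecdysone genes measured, ImpE2 and ImpL1, both ecdysone-inducible, are members. Neither passed in combined embryos (0.67 ± 0.60 and 0.86 ± 0.49, adjusted p = 0.42 and 0.18), while with the replicate block both did (limma, adjusted p = 0.049 and 0.0086).

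Early combined embryos were compared with the same early control arrays, so the values are set side by side with those of Notch and not counted as a second observation. In early combined against early control embryos 23 of the 114 genes (20.2%) fell and 0 rose (limma, adjusted p under 0.05), where 4.43% of all tested fell and 2.53% rose. At an unadjusted p under 0.05 33 differed, 1 of them higher. The median difference was -0.16. The 6 largest falls were those of CG43332 (-3.29 ± 0.29 in combined and -3.25 ± 0.29 in Notch embryos), Argk1 (-2.00 ± 0.38 and -1.39 ± 0.38), NtR (-1.81 ± 0.21 and -1.36 ± 0.21), Ppn (-1.78 ± 0.15 and -1.82 ± 0.15), CG5958 (-1.73 ± 0.18 and -1.84 ± 0.18) and Spn43Aa (-1.51 ± 0.41 and -0.85 ± 0.41). With the replicate block CG9184 also passed (-1.32 ± 0.41, limma, adjusted p = 0.042, against 0.57 without it). Spn43Aa lost its call in 6 of its alternatives, among them without any 1 early combined array (adjusted p up to 0.15). Compared directly, early combined and early Notch embryos differed in 0 of the 114 genes in either direction (limma, adjusted p under 0.05), where 0.0872% of all tested were called higher and 0.139% lower. At an unadjusted p under 0.05 9 members differed, 6 of them higher in combined embryos, and the median difference was 0.01 (-0.66 to 0.98).

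Of the 114 genes, 28 belong to 1 of the 19 gene lists and 34 are known only by a CG number. Of those 34, 16 rose in combined embryos and 5 fell in early Notch embryos. For comparison with this and the counts below, 50.0% of the 114 genes and 20.3% of all tested rose in combined embryos. In early Notch embryos 17.5% of the 114 and 3.49% of all tested fell. A further 24 named genes fall outside the role groups above, and 15 of them rose in combined and 5 fell in early Notch embryos. They include cib, whose product binds actin (a combined rise of 1.32 ± 0.14, limma, adjusted p = 8.1e-07), the kinesin light chain gene Klc (1.00 ± 0.20, limma, adjusted p = 8.6e-04), and the metallothionein gene MtnA, which did not pass (0.20 ± 0.39). Of 2 genes related to receptor tyrosine kinases, otk2 rose by 0.79 ± 0.14 (limma, adjusted p = 2.8e-04) and Ror (-0.08 ± 0.17) did not pass. Of the lists with few members, 2 of 6 serpin genes, 2 of 11 glycolysis and sugar genes, 2 of 3 fat body and lipid genes and 3 of 10 ecdysone genes rose in combined embryos, and 2 of the ecdysone genes fell. Of 7 salivary gland genes 1 rose and 1 fell, of 9 neuronal genes 1 rose and 1 fell, and of 8 glial genes 3 rose and 1 fell. No member is among the 12 cell cycle, 7 sensory organ, 7 tracheal or 8 gut genes measured. Of the 9 amnioserosa genes measured, 5 fell in early Notch embryos and egr alone is a member, and of 9 neuronal and 8 glial genes fne and repo alone are. CG5958 and CG5973, CG7296 and CG7294, and ImpL1 and CG14110 are also pairs of members with no protein-coding gene between them, and sturkopf and CG9184 have 2 between them. Another probe set was present for 16 of the genes. Of the 20 such probe sets 5 passed the filter, for Galphao, apolpp, betaTub60D, obst-A and rhea; all 5 had the signs of both criteria and 3 met both thresholds.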

How the data were processed

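Per the labels, biotin-labelled cRNA of whole embryos was hybridised to 24 Affymetrix DrosGenome1 arrays. The authors deposited log2 values, 1 per probe set and array; GCRMA and limma were used, per the submitters' processing notes (versions not given in the sources used here). Low values are drawn toward a floor, which understates changes of dim genes. Of 14010 probe sets, 44 controls were left out, 12443 had 1 symbol, 327 several and 1196 none; 49 symbols had no match in RefSeq (Release 6 plus ISO1 MT), used for names and neighbours. Probe sets at 5 or more in at least 3 arrays were kept, 1 per symbol (highest mean), leaving 5736 to test, 5020 with 1 symbol. One limma model (version 3.58.1, R 4.3.3) of 8 group means was fitted to the 24 arrays with lmFit and eBayes, with 16 residual and 4.09 prior degrees of freedom. P-values were adjusted by Benjamini-Hochberg in each comparison, with calls at adjusted p under 0.05. Errors are standard errors of the fit; the 3 arrays per group limit precision. In simulated data for early Notch against early control, 92.7% of genes changed by 1 log2 unit were recovered, with 9 false calls among 167. At 0.5 units 53.1% were recovered, and 49.3% for late against early combined. The simulated noise was independent between arrays and had no floor, unlike the real arrays, so these shares do not describe dim members.

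The members and gene lists were chosen with earlier results of these data known, and the groups by role after seeing values. Named were the 6 called members with the largest rise and fall per test, the 8 with the largest differences in each criterion, the 3 genes nearest each threshold on either side, members of the lists, and members whose early Notch values all lay above early control values; other genes named to fill a role group were chosen after their values were seen. Same-numbered arrays deviated together within a window in all 36 pairs (correlations of 0.156 to 0.673), so a fit with the replicate number as a block was also run; its values stand beside results whose call it changed. Alternatives were other scalings, filters, probe-set rules, a fit on only the arrays compared, and leaving out replicates.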

Additional observations from a re-analysis of the deposited data

Results flagged for a closer look

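The filamin gene cher differed in the direction of the Notch effect between the windows. It had 5.48, 5.62 and 5.63 log2 units in early Notch against 5.28, 5.19 and 5.12 in early control embryos, so all 3 Notch arrays lay above all 3 controls. In the late window it had 6.22, 5.85 and 5.57 in Notch against 7.78, 7.44 and 6.56 in control embryos, so all 3 lay below. The early difference was 0.38 ± 0.23 (limma, adjusted p = 0.62), the late one of -1.38 was part of the choice of members, and the difference between the windows was not tested.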

How the results depend on the processing

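Over 18 results on named genes and 270 alternative values, 256 kept their direction and side of the threshold, 14 lost the call and 0 reversed; the 14 belong to CG10591, Spn43Aa, obst-A and glob1. The replicate block within windows raised the calls over all tested to 495 (311 without it) for early Notch against control, 729 (399) for early combined against control and 46 (13) for early combined against Notch, and among the members it added calls and removed 0. The fit on only the arrays compared gave 613 and 6 for the last 2 comparisons, quantile normalisation gave 21 for early combined against Notch and a block across windows 27. Without replicate 3 of every group, an alternative chosen after seeing the data like the block across windows, the counts were 248 for early combined against control, 7 for early combined against Notch and 1163 (1910 in all arrays) for late against early combined. Leaving out 1 array at a time gave 256 to 290, 275 to 323, 8 to 23 and 1405 to 1787 calls for early Notch, early combined, early combined against Notch, and combined late against early. The members called were 15 to 20 lower, 16 to 23 lower, 0 either way, and 41 to 58 higher with 0 to 1 lower, and the number of genes chosen ran from 102 to 142. It was 123 with array medians centred, 104 with quantiles, 124 with no filter, 91 with a filter of 6 and 113 with probe sets averaged. The cause of these moves was not tested. Levels near the floor limit what dim members can show.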
